A study of Homo sapiens with 9 samples.

Results

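The set described here holds 42 human genes, 40 that build ribosomes and the MYC family genes MYC and MYCN, which are often tied to that work. They were chosen by gene symbol for their role: 18 are grouped under the small subunit processome (factors of the later pre-40S particle such as NOB1 included), 8 encode proteins of the small nucleolar ribonucleoproteins (snoRNPs) and their chaperone, 8 act on the precursor of the large subunit, 2 are the abundant nucleolar proteins nucleolin and nucleophosmin, 4 encode RNA polymerase I subunits and 2 are the MYC genes. All 42 symbols were found among the 40332 in the count table, and all 42 were among the 15162 genes abundant enough to test. The rule names no measured value, but the set was drawn up with results of these libraries in view, so its counts describe these libraries and are not independent evidence.

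RNA-seq was made from 9 libraries of the H1 line, an established line of human embryonic stem cells, labelled wild-type in every group. In 3 libraries the cells were in N2B27, a serum-free basal medium, with 5 µM EPZ-6438 (tazemetostat), an inhibitor of the histone methyltransferase EZH2, for 3 days. In 3 libraries they were in N2B27 without the inhibitor, for a time the labels do not give. In 3 libraries they were in PXGL, a medium that holds human cells in a naive pluripotent state with the cytokine LIF and small molecules that block MEK, tankyrase and protein kinase C. All groups are the same line, and nothing in the labels says whether the 3 libraries of a group came from separate cultures, so the p-values measure only the spread between these libraries.

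A ribosome is built in the nucleolus. RNA polymerase I transcribes a long precursor that holds the rRNAs of both subunits, snoRNPs modify it, and large assemblies (the small subunit processome and the pre-60S particles) fold and cut it while ribosomal proteins join. MYC proteins are transcription factors that bind the E-box motif CACGTG with their partner MAX, and genes for ribosome building are among their best known targets; fast-dividing pluripotent cells keep this machinery at high levels.

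Total counts were 14719613 to 16479615 in the EPZ-treated libraries, 14482138 to 15295201 in N2B27 and 17499721 to 18358543 in PXGL. Levels below are CPM, which are counts scaled to a common library size by the TMM method, and fold changes with adjusted p-values come from edgeR's quasi-likelihood test on all 15162 genes with Benjamini-Hochberg adjustment; a gene passed the test at an adjusted p under 0.05. The first principal component, 63.0% of the variance, set PXGL apart from both N2B27 groups. PXGL replicate 1 differed from the rest of its group: the share of counts in ribosomal protein genes was 8.03% in it, 6.56% in replicate 2 and 6.11% in replicate 3, and its log2 ratio to the mean of these 2 fell with exon length across 14474 genes (Spearman's rho -0.425, a description). In that replicate 36 of the 42 members were higher than the mean of the other 2 PXGL libraries, with a median log2 ratio of 0.24. Results that rest on PXGL are therefore given with and without it where it changes them. Since every level is a share of a library, the amount of RNA per cell was not measured, and in bulk RNA fewer cells of a type and less RNA per cell cannot be told apart. The 9 markers of primed pluripotency on a fixed list summed to 456 CPM in each EPZ-treated library, 909 to 918 CPM in N2B27 and 49.4 to 51.7 CPM in PXGL, none of them at 0; their part in the results below was not tested.

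Nearly the whole set was higher in N2B27 than in PXGL. Of the 42 members 36 rose in N2B27 relative to PXGL (85.7%, where 27.4% of all tested genes rose) and 1 fell (2.38%, where 28.7% of all genes fell). The median log2 fold change of the set was 0.40, against -0.03 over all tested genes. Together the 42 members took 1.05% to 1.06% of counts in N2B27 and 0.775% to 0.866% in PXGL. The 5 members that did not pass were BYSL, FBL, NHP2, NOP10 and POLR1E. Without PXGL replicate 1 the first 4 of these were also higher in N2B27 and 40 members rose (95.2%, where 30.4% of all genes rose).

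MYC made the largest change. Its transcript, which encodes the E-box binding factor c-MYC, stood at 53.2, 47.0 and 50.4 CPM in the N2B27 libraries, against 3.46, 3.18 and 1.55 CPM in PXGL. The groups were far apart, and the PXGL values rested on 63, 58 and 28 counts, well above the floor of 3 counts. The fold change was 18.3 (log2 4.20 ± 0.16, SE; adjusted p = 2.43e-12). MYCN, the family member first known from neuroblastoma, was at 130.8, 130.0 and 133.0 CPM in N2B27, against 89.3, 73.8 and 74.8 CPM in PXGL, again without overlap. It rose 1.66-fold (log2 0.73 ± 0.08, SE; adjusted p = 4.74e-07).

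Per kilobase of exon, which lets genes be compared, MYCN was the more abundant of the pair in every group. In the EPZ-treated libraries MYC was at 14.0 ± 0.663 and MYCN at 36.4 ± 1.53 CPM per kb (SD, n = 3). In N2B27 they were at 16.7 ± 1.04 and 50.4 ± 0.598, and in PXGL at 0.909 ± 0.342 and 30.5 ± 3.34 CPM per kb. The ratio of MYCN to MYC, taken in each library and then averaged, was 2.59 ± 0.0586 in EPZ-treated cells and 3.02 ± 0.179 in N2B27 (SD, n = 3). In PXGL it was 29.8, 26.8 and 55.5 in the 3 libraries, the last of them the one with 28 MYC counts. The sum of both was 50.4 CPM per kb with EPZ-6438, 67.2 in N2B27 and 31.4 in PXGL. The third family gene, MYCL, moved the other way. It was at 26.2, 25.6 and 28.5 CPM in EPZ-treated libraries, 11.9, 11.3 and 12.9 CPM in N2B27 and 23.4, 29.1 and 30.9 CPM in PXGL. It fell 2.31-fold in N2B27 relative to PXGL (adjusted p = 2.53e-07 by edgeR) and rose 2.23-fold with EPZ-6438 (adjusted p = 2.27e-06).

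**Figure D1:**
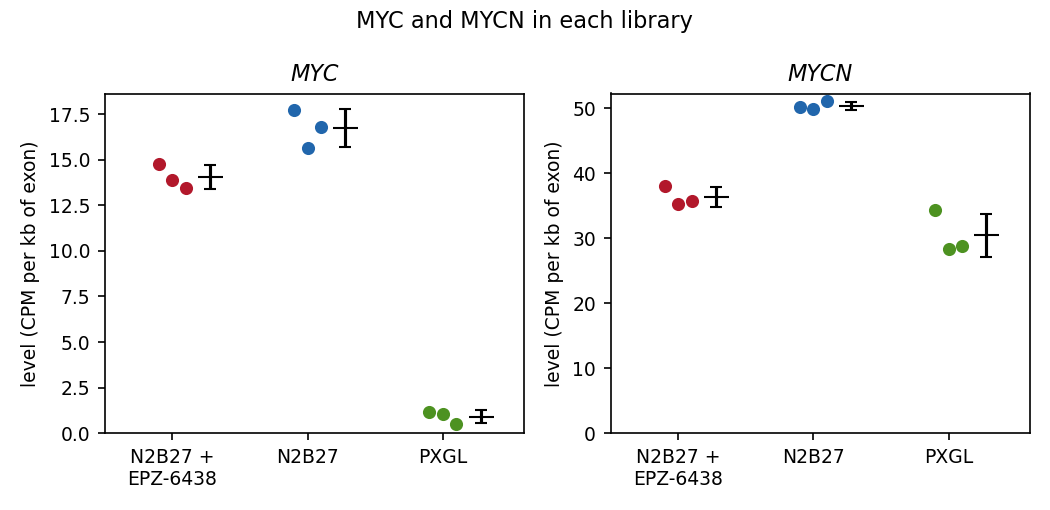
Levels of MYC (left) and MYCN (right) in CPM per kb of exon in each library of the 3 groups; points are libraries and the black marks give the mean and SD of 3. MYC lies near 0 in PXGL and at 14.0 and 16.7 on average in the N2B27 groups with and without EPZ-6438, while MYCN is at 30.5 or above on average in every group.

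Among the 18 members grouped under the small subunit processome, the assembly that prepares the 18S rRNA, 17 rose in N2B27 relative to PXGL, with a median log2 fold change of 0.42. UTP20, a very large scaffold protein of the processome, changed most. It was at 169.5, 169.4 and 162.5 CPM in N2B27, against 66.0, 83.5 and 82.8 CPM in PXGL. All 3 N2B27 libraries lay above all 3 PXGL libraries, a 2.16-fold difference (adjusted p = 9.33e-09). UTP14A, which works with an RNA helicase of the processome, rose by 0.88 on the log2 scale, and HEATR1, a subunit of the UTP-A complex that binds the 5′ end of the precursor, rose by 0.77. Reads of HEATR1 may be shared with LGALS8, whose exons overlap it on the other strand over 2095 bp; whether the counting used strand is not given. Of the other UTP-A subunits, WDR75 rose by 0.73, UTP15 by 0.65, WDR43 by 0.38 and UTP4 by 0.28 on the log2 scale. UTP6 and UTP18, of the neighbouring UTP-B complex, rose by 0.45 and 0.39. NOB1, the nuclease that makes the final cut at the 3′ end of 18S rRNA, was at 113.1, 107.2 and 104.2 CPM in N2B27, against 98.6, 86.0 and 83.7 CPM in PXGL, a log2 fold change of 0.27 (adjusted p = 0.00364). RRP12, an export factor of the pre-40S particle, rose by 0.67, and BYSL, which stays on that particle until late, had a log2 fold change of 0.16 (adjusted p = 0.126). NOP14 and UTP23 passed narrowly, with adjusted p of 0.0319 and 0.0459, and both missed the threshold when single libraries were left out, with adjusted p up to 0.124 and 0.19.

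Of the 8 snoRNP members 5 rose, with a median log2 fold change of 0.29, and both kinds of particle held members that passed and members that did not. In the H/ACA particles, which turn uridine into pseudouridine, GAR1 was at 47.2, 39.9 and 45.0 CPM in N2B27, against 25.3, 23.9 and 19.6 CPM in PXGL. It rose 1.92-fold (adjusted p = 1.71e-06), and DKC1, the enzyme of the same particle, rose by 0.58 on the log2 scale. The small core protein NOP10 was at 77.7, 75.9 and 74.4 CPM in N2B27, against 88.5, 63.3 and 51.0 CPM in PXGL, so the groups overlapped because of PXGL replicate 1 (adjusted p = 0.347). Without that library NOP10 was higher in N2B27 by 0.41 (adjusted p = 4.48e-06), and NHP2, the fourth protein of the particle, by 0.21 (adjusted p = 0.000202). Reads of NHP2 may be shared with RMND5B, whose exons overlap it on the other strand over 414 bp. The values of NHP2 were not whole in any library. In the C/D particles, which methylate ribose, NOP56 rose by 0.34 and NOP58 by 0.24, while the methyltransferase FBL had a log2 fold change of 0.10 (adjusted p = 0.215). NOLC1, a chaperone that carries snoRNPs, was at 486.3, 468.1 and 485.3 CPM in N2B27, against 342.6, 356.4 and 359.0 CPM in PXGL, and rose by 0.44 (adjusted p = 5.82e-06).

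Of the 8 members that act on the pre-60S particle 7 rose and BOP1 fell. RRS1, which helps to place the 5S rRNA particle, was at 89.4, 88.9 and 96.0 CPM in N2B27, against 55.3, 43.1 and 41.6 CPM in PXGL, a 1.96-fold rise (adjusted p = 1.62e-07). NOP2, a methyltransferase of 28S rRNA, was at 250.4, 217.9 and 229.8 CPM in N2B27, against 189.0, 157.3 and 150.1 CPM in PXGL, a log2 rise of 0.49 (adjusted p = 7.09e-05). NOP2 shares 2550 bp of exon with another annotated gene on its own strand, and its values were not whole in any library, as happens when reads are divided between genes. The 3 subunits of the PeBoW complex, which acts in 28S and 5.8S rRNA maturation, did not move together. PES1 rose by 0.65 and WDR12 by 0.19 on the log2 scale, but BOP1 was at 97.6, 99.4 and 93.0 CPM in N2B27, against 121.3, 105.4 and 109.3 CPM in PXGL. All N2B27 values for BOP1 were below all PXGL values, a log2 fold change of -0.21 ± 0.07 (SE; adjusted p = 0.0218); leaving out N2B27 replicate 1 or 3 took it out of the called genes, at adjusted p of 0.0537 and 0.0965. WDR12 and RRP1 also lost their calls when some single libraries were left out (adjusted p up to 0.105 and 0.139).

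Nucleolin and nucleophosmin, RNA-binding histone chaperones that fill much of the nucleolus, both rose. NCL was at 1830, 1839 and 1871 CPM in N2B27, against 1277, 1189 and 1216 CPM in PXGL, a 1.5-fold difference (adjusted p = 2.96e-07). NPM1 was at 3324, 3271 and 3268 CPM in N2B27, against 2946, 2466 and 2339 CPM in PXGL, with PXGL replicate 1 the nearest to N2B27 (log2 0.35, adjusted p = 0.00101). NPM1 has 45 named pseudogenes in the annotation, and how reads shared with them were counted is not known. Of the RNA polymerase I subunits 3 of 4 rose. POLR1A, the largest and catalytic subunit, was at 198.7, 208.0 and 198.1 CPM in N2B27, against 125.9, 163.1 and 166.1 CPM in PXGL (log2 0.41, adjusted p = 0.000583). POLR1B, the other subunit that forms the active centre, was at 117.3, 115.6 and 115.4 CPM in N2B27, against 96.2, 92.7 and 92.6 CPM in PXGL (log2 0.31, adjusted p = 0.000415). POLR1C, shared with RNA polymerase III, was at 35.8, 33.1 and 38.4 CPM in N2B27 and at 32.0, 25.9 and 25.5 CPM in PXGL (log2 0.36, adjusted p = 0.00575). POLR1E had a log2 fold change of 0.10 (adjusted p = 0.352).

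**Figure D2:**
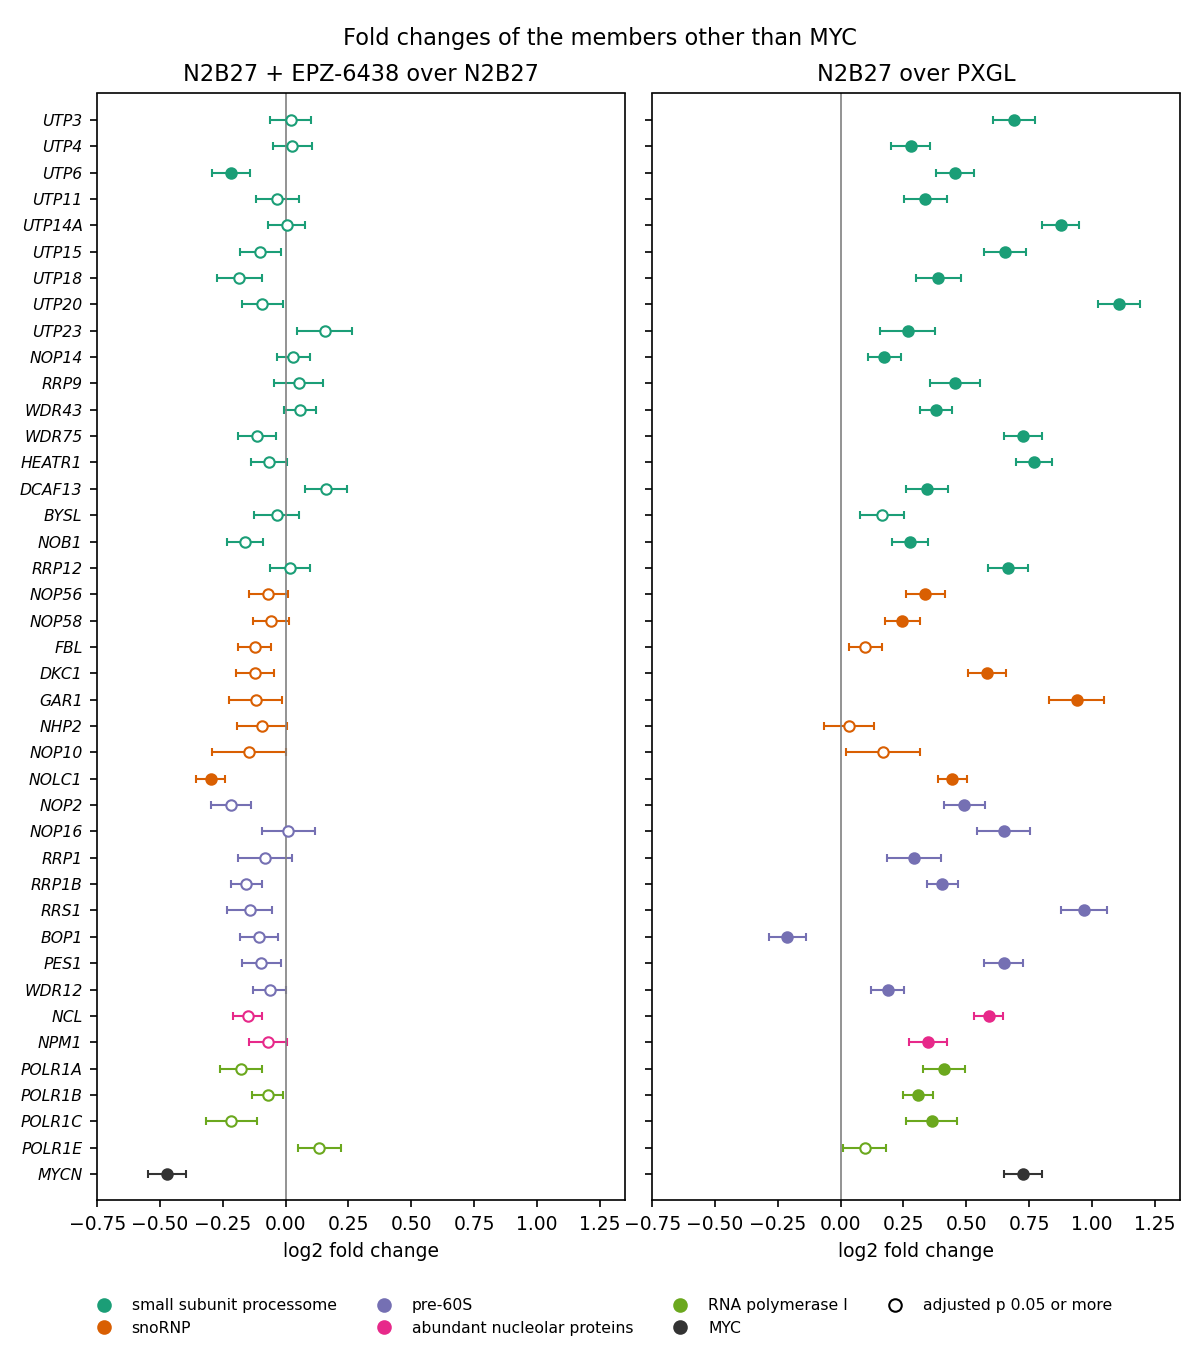
Log2 fold change with its standard error for the 41 members other than MYC, grouped by role, for N2B27 with EPZ-6438 over N2B27 (left) and N2B27 over PXGL (right); filled points passed an adjusted p of 0.05 in edgeR's test. Nearly all points on the right lie above 0 and BOP1 lies below it, whereas on the left UTP6, NOLC1 and MYCN are the filled points and all 3 lie below 0.

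Few members differed between N2B27 with EPZ-6438 and N2B27 alone by the same test, and this count depended on which libraries entered the fit. Since the time in N2B27 alone is not given, the inhibitor and any difference in time cannot be told apart. Relative to N2B27, 3 of 42 fell (7.14%, where 10.6% of all tested genes fell), a share no higher than that background in this fit, and 0 rose, where 14.2% of all genes rose. No member was higher at an unadjusted p under 0.05 either, where 19.6% of all genes were. At that level 8 members were lower (19.0%, where 16.6% of all genes were), and DESeq2's test likewise called 0 higher. The median log2 fold change was -0.09, against 0.01 over all genes, and 11 of 42 members had a value above 0. With only the 2 groups compared in the fit, 16 members were lower (38.1%, where 18.7% of all genes tested in that fit were lower) and 1, DCAF13, was higher (2.38%, where 20.1% were). Without PXGL replicate 1, 15 were lower (35.7%, where 17.9% of all genes were) and 1 was higher (where 19.2% were). The share of members called lower was thus below that of all genes in the fit of all 9 libraries and above it in these 2 fits; what made the calls differ was not tested. Fold changes themselves hardly moved between these fits. Reads of DCAF13 may be shared with SLC25A32, whose exons overlap it on the other strand over 406 bp. The values of DCAF13 were not whole in any library, and it has 3 named pseudogenes in the annotation.

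MYCN fell most. It was at 99.1, 91.7 and 93.0 CPM in EPZ-treated libraries, against 130.8, 130.0 and 133.0 CPM in N2B27, with no overlap. The log2 fold change was -0.47 ± 0.08 (SE), a 1.39-fold fall with an adjusted p of 0.000189. MYC was at 44.3, 41.7 and 40.4 CPM in EPZ-treated libraries, against 53.2, 47.0 and 50.4 CPM in N2B27. These groups did not overlap either, but the log2 fold change of -0.25 ± 0.12 (SE) did not pass (adjusted p = 0.152); with only the compared groups in the fit it did (adjusted p = 0.00394).

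NOLC1 was at 382.8, 407.1 and 381.0 CPM in EPZ-treated libraries, against 486.3, 468.1 and 485.3 CPM in N2B27. It fell 1.23-fold (log2 -0.30 ± 0.06, SE; adjusted p = 0.00105). UTP6 was at 123.0, 137.5 and 124.1 CPM with EPZ-6438, against 159.7, 143.4 and 143.9 CPM in N2B27, a 1.16-fold fall with an adjusted p of 0.0458. That call was lost without EPZ-treated replicate 1 or 3 or any single N2B27 replicate, with adjusted p of 0.0698 to 0.205. NOP2 (202.2, 193.2 and 204.6 CPM with EPZ-6438) and NCL (1606, 1707 and 1676 CPM) lay below every N2B27 library, with log2 fold changes of -0.22 and -0.15 and adjusted p of 0.0586 and 0.0707. DESeq2's test called both lower, as well as RRP1B (adjusted p = 0.0449).

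The other members described by library for N2B27 and PXGL did not pass under EPZ-6438; some overlapped their N2B27 values while others lay below them. The share of all tested genes whose groups lay apart in this way was not counted. UTP14A was at 208.2, 207.9 and 207.9 CPM in EPZ-treated libraries, against 210.6, 205.8 and 206.0 CPM in N2B27, and the groups overlapped. UTP20 was at 146.7, 166.5 and 156.7 CPM with EPZ-6438, where N2B27 replicate 3 had 162.5 CPM, so these groups overlapped too (log2 -0.09, adjusted p = 0.44). GAR1, at 38.7, 45.1 and 37.8 CPM with EPZ-6438, overlapped as well (log2 -0.12, adjusted p = 0.446). RRS1 was at 84.1, 83.1 and 81.2 CPM with EPZ-6438, below all N2B27 libraries (log2 -0.14, adjusted p = 0.273). NPM1, at 3011, 3153 and 3221 CPM, and NOP10, at 73.3, 68.9 and 63.9 CPM, also lay below every N2B27 library. RRS1, NPM1 and NOP10 did not pass in the fit of all 9 libraries but were lower in the fit of only the compared groups (adjusted p = 0.0326, 0.0251 and 0.0497). In the polymerase, POLR1A (176.9, 182.5 and 175.3 CPM), POLR1B (109.3, 106.9 and 115.2 CPM) and POLR1C (30.8, 31.6 and 29.9 CPM) had log2 fold changes of -0.18, -0.07 and -0.22. POLR1A and POLR1C lay below every N2B27 library. POLR1B did so only narrowly, with 115.2 CPM in EPZ-treated replicate 3 against 115.4 CPM in N2B27 replicate 3 (adjusted p = 0.422 by edgeR). None of these 3 passed in the fit of all 9 libraries, though POLR1A and POLR1C did in that of the compared groups (adjusted p = 0.000337 and 0.0338), and POLR1E was on the other side at 0.13. The processome group as a whole had a median log2 fold change of -0.01 and the snoRNP proteins one of -0.12, with each of the 8 snoRNP members below 0.

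Against PXGL the EPZ-treated cells gave 32 members higher (76.2%, where 28.1% of all genes were higher) and 1 lower (where 28.1% were lower), with a median log2 fold change of 0.27. This comparison shares libraries with both others, so its values add no independent result. MYC was 15.4-fold higher than in PXGL (adjusted p = 5.99e-12) and MYCN 1.19-fold (adjusted p = 0.00909), and UTP20 was 2.02-fold higher. The MYCN call was lost without EPZ-treated replicate 1 or PXGL replicate 2 (adjusted p = 0.0502 and 0.0581). NOB1 was at 96.2, 97.3 and 96.6 CPM in EPZ-treated libraries, against 98.6, 86.0 and 83.7 CPM in PXGL, so only PXGL replicate 1 lay above them (adjusted p = 0.191). Without that replicate NOB1 was higher with EPZ-6438 than in PXGL, by 0.19 on the log2 scale (adjusted p = 0.00371 by edgeR). BOP1 was again lower, by 0.32 on the log2 scale (97.6, 86.8 and 85.0 CPM with EPZ-6438; adjusted p = 0.00155). Without PXGL replicate 1 the count of members higher was 39 (92.9%, where 31.2% of all genes were higher).

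**Figure D3:**
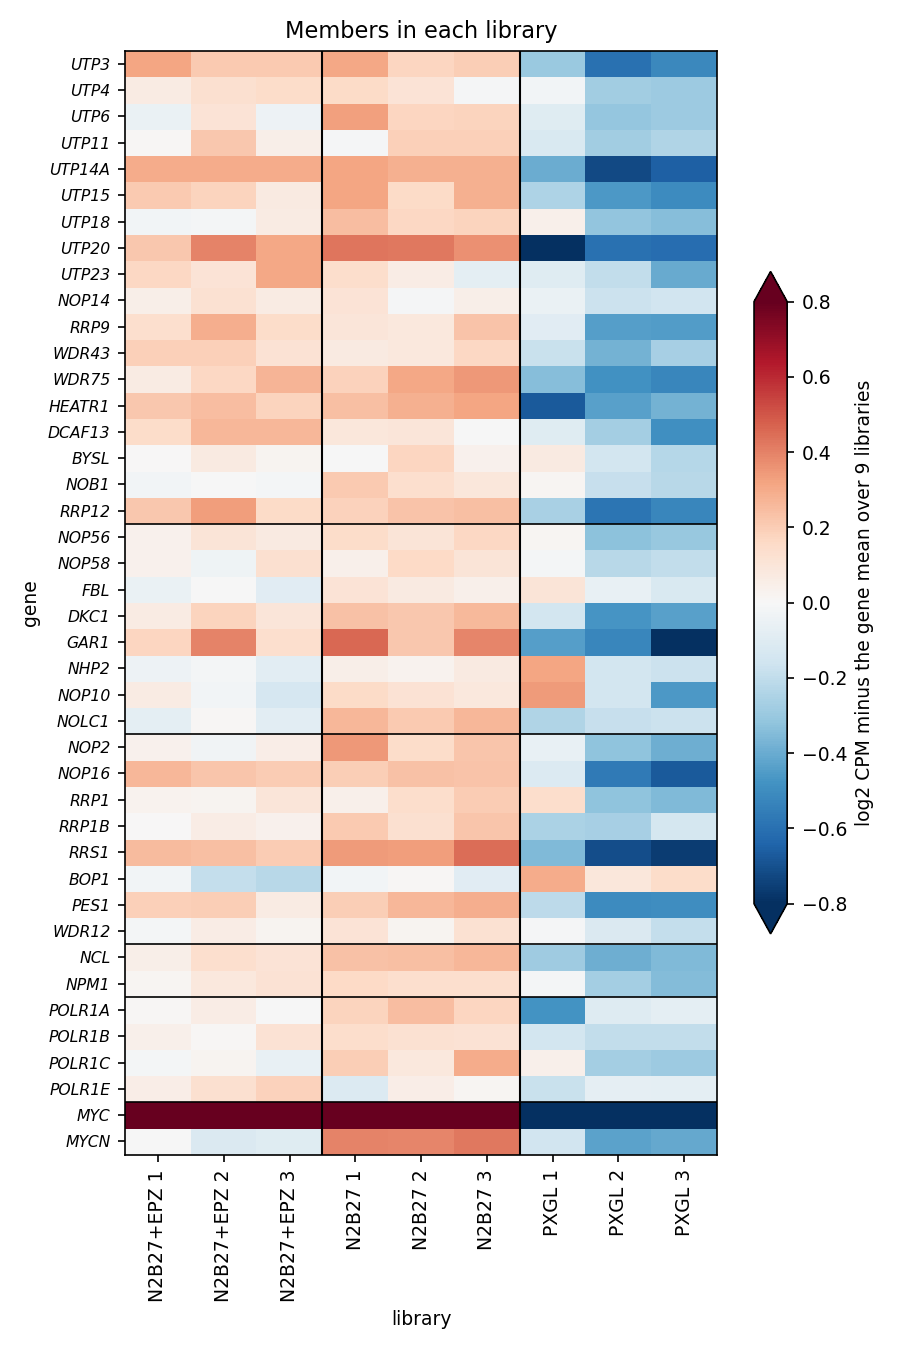
Log2 CPM of each of the 42 members minus its mean over the 9 libraries, one row per gene grouped by role and one column per library; the colour scale ends at 0.8 on either side, which MYC exceeds in all 9 libraries. The PXGL columns are blue for most genes, with PXGL replicate 1 paler than replicates 2 and 3 in many rows and darker for UTP20, HEATR1 and POLR1A, and BOP1, NHP2 and NOP10 are the reddest members in PXGL replicate 1.

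Members also differ in level. Length here is the union of all annotated exons of a gene, whether or not these cells use them, so the order is approximate. Per kilobase of exon, NPM1 led the set in N2B27 at 859 CPM per kb, followed by NCL at 267 and the small proteins NOP10 and FBL at 137 and 130, with NOLC1 at 121, NHP2 at 103 and DKC1 at 90.2 CPM per kb. The lowest members in N2B27 were POLR1C at 6.44 and UTP23 at 4.44 CPM per kb. The order at the top was the same with EPZ-6438 (NPM1 817, NCL 240, NOP10 124 and FBL 119 CPM per kb). In PXGL the lowest was MYC. Sorted by exon length, 15 of the shorter 21 members rose in N2B27 relative to PXGL and so did 21 of the longer 21. Of all tested genes 27.4% rose. In PXGL replicate 1 the log2 ratio to the rest of its group fell with exon length among the members too (Spearman's rho -0.439, n = 42, a description). Without that replicate 19 of the shorter 21 rose and again 21 of the longer 21, where 30.4% of all genes rose.

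Because MYC proteins bind the E-box, the start regions of the members were read for the letters CACGTG, which are the same on both strands. RefSeq promoters (GRCh38.p14, 300 bases, the first 250 of them before a start base) were available for 32 of the 42 members. That start base was the RefSeq gene start in 28 of the 32, so positions below are counted from the start base of the window. The motif was in 12 of these (37.5%), in 1164 of 11806 promoters of tested genes (9.86%) and in 2548 of 35116 of all promoters of the same length (7.26%). It was in 28 of 99 promoters (28.3%) of the other maturation genes described below and in 3 of 67 promoters (4.48%) of ribosomal protein genes. Median GC content was 61.8% in the member promoters and 65.3% in those of tested genes. The 12 members were UTP4, UTP14A, UTP18, UTP20, NOP14, RRP9, WDR43, BYSL, FBL, NOP10, NOP2 and PES1, and UTP18 and NOP10 held 2 copies each. Of these 12 members 9 rose in N2B27 relative to PXGL, with a median log2 fold change of 0.38. Of the 20 members with a promoter but no motif 19 rose, with a median of 0.43, where 27.4% of all tested genes rose. Without PXGL replicate 1 all 12 members with the motif and all 20 without it rose, with medians of 0.48 and 0.50. In that fit 30.4% of all genes rose. A match is a run of letters, not evidence of binding, and the absence of one says nothing of MYC.

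The promoters of 5 members are printed 5′ to 3′ on the strand of the gene, with the E-box in capitals. UTP20 is the member that rose most after MYC, UTP18 and NOP10 hold 2 E-boxes each, RRP9 encodes a protein of the U3 snoRNP and has its motif across the start base of its window, and MYCN has no CACGTG in this window. They lie at chr12:101279855-101280154 (plus strand), chr17:51260296-51260595 (plus), chr15:34343087-34343386 (minus), chr3:51941855-51942154 (minus) and chr2:15940300-15940599 (plus).
UTP20: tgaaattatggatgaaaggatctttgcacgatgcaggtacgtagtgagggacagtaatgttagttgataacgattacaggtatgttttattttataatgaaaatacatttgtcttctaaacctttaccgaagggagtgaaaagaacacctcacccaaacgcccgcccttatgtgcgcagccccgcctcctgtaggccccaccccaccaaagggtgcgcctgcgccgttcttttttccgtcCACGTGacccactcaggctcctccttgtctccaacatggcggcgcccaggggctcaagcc
UTP18: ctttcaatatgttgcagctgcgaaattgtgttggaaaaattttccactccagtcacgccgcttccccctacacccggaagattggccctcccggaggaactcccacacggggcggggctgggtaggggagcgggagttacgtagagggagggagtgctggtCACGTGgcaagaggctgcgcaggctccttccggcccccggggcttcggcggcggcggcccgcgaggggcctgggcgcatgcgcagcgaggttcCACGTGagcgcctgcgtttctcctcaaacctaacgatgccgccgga
NOP10: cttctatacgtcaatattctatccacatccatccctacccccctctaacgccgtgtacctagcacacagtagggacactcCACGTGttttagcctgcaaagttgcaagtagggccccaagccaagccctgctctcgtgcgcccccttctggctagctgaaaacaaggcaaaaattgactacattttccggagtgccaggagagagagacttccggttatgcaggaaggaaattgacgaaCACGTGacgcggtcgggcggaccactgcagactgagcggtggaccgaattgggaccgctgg
RRP9: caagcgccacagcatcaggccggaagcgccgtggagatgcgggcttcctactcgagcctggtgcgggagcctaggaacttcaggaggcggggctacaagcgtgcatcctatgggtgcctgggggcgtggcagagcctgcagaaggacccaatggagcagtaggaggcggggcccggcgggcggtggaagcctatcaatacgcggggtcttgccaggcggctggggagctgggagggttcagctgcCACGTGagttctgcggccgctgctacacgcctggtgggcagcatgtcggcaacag
MYCN: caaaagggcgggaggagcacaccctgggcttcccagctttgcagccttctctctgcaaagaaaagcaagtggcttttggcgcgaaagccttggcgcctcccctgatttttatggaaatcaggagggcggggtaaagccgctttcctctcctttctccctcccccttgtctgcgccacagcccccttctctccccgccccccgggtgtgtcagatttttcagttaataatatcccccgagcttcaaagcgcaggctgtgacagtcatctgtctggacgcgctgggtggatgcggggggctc
In UTP20 the motif begins 10 bases before the start base of the window, and in RRP9 5 bases before it. UTP18 has one copy 89 bases before and one 4 bases after the start, and NOP10 has them 170 and 11 bases before it. Among the 12 members with the motif the log2 fold change of N2B27 over PXGL ran from 0.10 to 1.11, with UTP20 at the top.

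**Figure D4:**
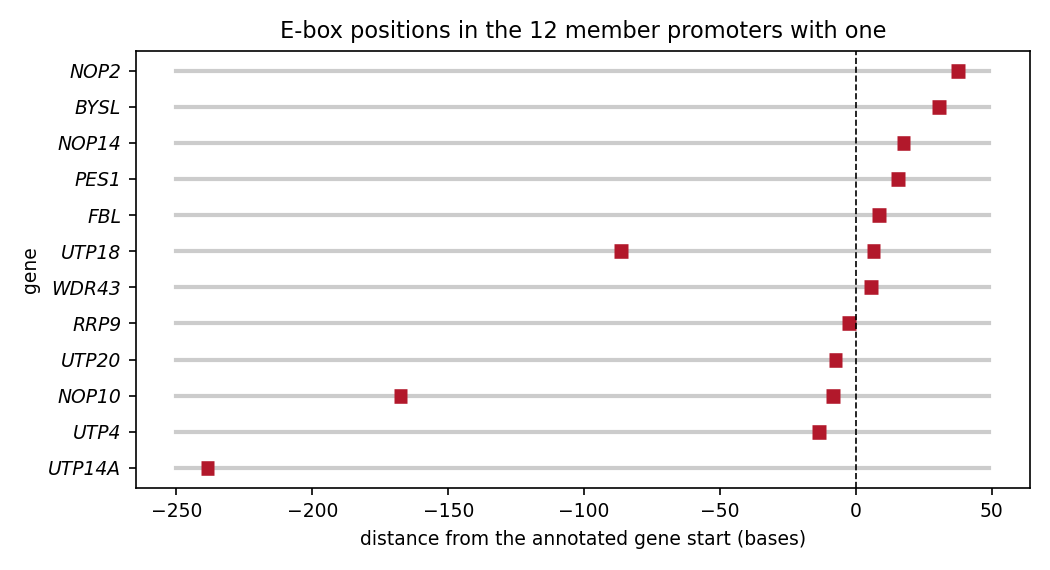
Positions of CACGTG (red) in the 300-base windows (grey lines) of the 12 members that hold it. Distances are in bases from the start base of the window (dashed line), which the axis calls the annotated gene start though it is not that in every gene. In 11 of the 12 genes a motif lies between 16 bases before and 35 bases after the start, and UTP14A has its motif 241 bases before it.

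Other genes of ribosome maturation behaved much like the set in N2B27. On 5 further lists (40S maturation, 60S maturation, snoRNP assembly, nucleolar helicases and the nuclear exosome), 88 of 115 genes rose relative to PXGL (76.5%, where 27.4% of all tested genes rose). Only 1 fell (0.87%, where 28.7% of all genes fell), and the median log2 fold change was 0.36. Examples are NAT10, which acetylates 18S rRNA, at 168.9, 171.8 and 171.1 CPM in N2B27 against 93.4, 97.9 and 90.3 CPM in PXGL (1.82-fold, adjusted p = 3.34e-09), and the helicase DDX21, at 838.2, 836.7 and 828.0 CPM in N2B27 against 473.6, 514.1 and 533.6 CPM in PXGL (1.65-fold). BMS1, a GTPase of the processome, rose 1.76-fold. With EPZ-6438 3 of the 115 rose relative to N2B27 (2.61%, where 14.2% of all genes rose). Another 12 fell (10.4%, about the 10.6% of all genes that fell), with a median of -0.05 over the 115. NAT10 was among those that fell (1.24-fold, adjusted p = 0.000869). Of 17 other genes of the RNA polymerase I machinery 7 rose (41.2%) and 3 fell (17.6%) in N2B27 relative to PXGL, where 27.4% and 28.7% of all genes did. UBTF, the factor that opens rDNA chromatin, was 1.45-fold higher in N2B27. Of 20 RNA polymerase III genes 8 rose and 3 fell there, where 27.4% and 28.7% of all genes did. With EPZ-6438 1 of the 20 rose and 6 fell relative to N2B27, where 14.2% and 10.6% of all genes did. Among the 6 was POLR3G, which fell 1.36-fold (adjusted p = 0.00313).

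The ribosomal proteins themselves did not follow the factors that assemble them. Of 84 ribosomal protein genes 41 fell in N2B27 relative to PXGL (48.8%, where 28.7% of all tested genes fell). Another 2 rose (2.38%, where 27.4% of all genes rose), and the median log2 fold change was -0.21. The size of that difference rested on PXGL replicate 1: the summed level of the 84 genes was 58823 to 59840 CPM in N2B27, against 80879, 63984 and 59380 CPM in PXGL replicates 1, 2 and 3. Without replicate 1 32 of the 84 fell (where 30.8% of all genes fell) and 14 rose (where 30.4% rose), with a median of -0.08. With EPZ-6438 7 of the 84 rose relative to N2B27 (8.33%, below the 14.2% of all tested genes that rose). Without PXGL replicate 1 43 of the 84 rose, where 19.2% of all genes did. In the fit of all 9 libraries 77 of 84 had a log2 fold change above 0, and the median was 0.14. The summed level was 63741 to 66646 CPM with EPZ-6438, above every N2B27 library. Against PXGL the median was -0.07 in EPZ-treated cells and 0.06 without PXGL replicate 1, so its sign changed with that library. The 14 transcripts on the list that host snoRNAs in their introns had medians in the same directions in these 2 comparisons. Of these 10 were lower in N2B27 than in PXGL (71.4%, where 28.7% of all genes were, median log2 -0.33). The summed level of the 14 was 1413 to 1443 CPM in N2B27, against 1976, 1729 and 1692 CPM in PXGL replicates 1, 2 and 3. With EPZ-6438 10 were higher than in N2B27 (71.4%, where 14.2% of all genes were, median 0.29). SNHG8 was at 53.8, 56.3 and 54.4 CPM with EPZ-6438, against 41.1, 35.5 and 33.6 CPM in N2B27 (1.5-fold, adjusted p = 0.000276 by edgeR). Median exon length was 2992 bp for the ribosomal protein genes and 3647 bp for the 13 of these transcripts with a length, against 4973 bp for all tested genes, and length went with PXGL replicate 1 as given above. Its part in these list values was not tested.

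**Figure D5:**
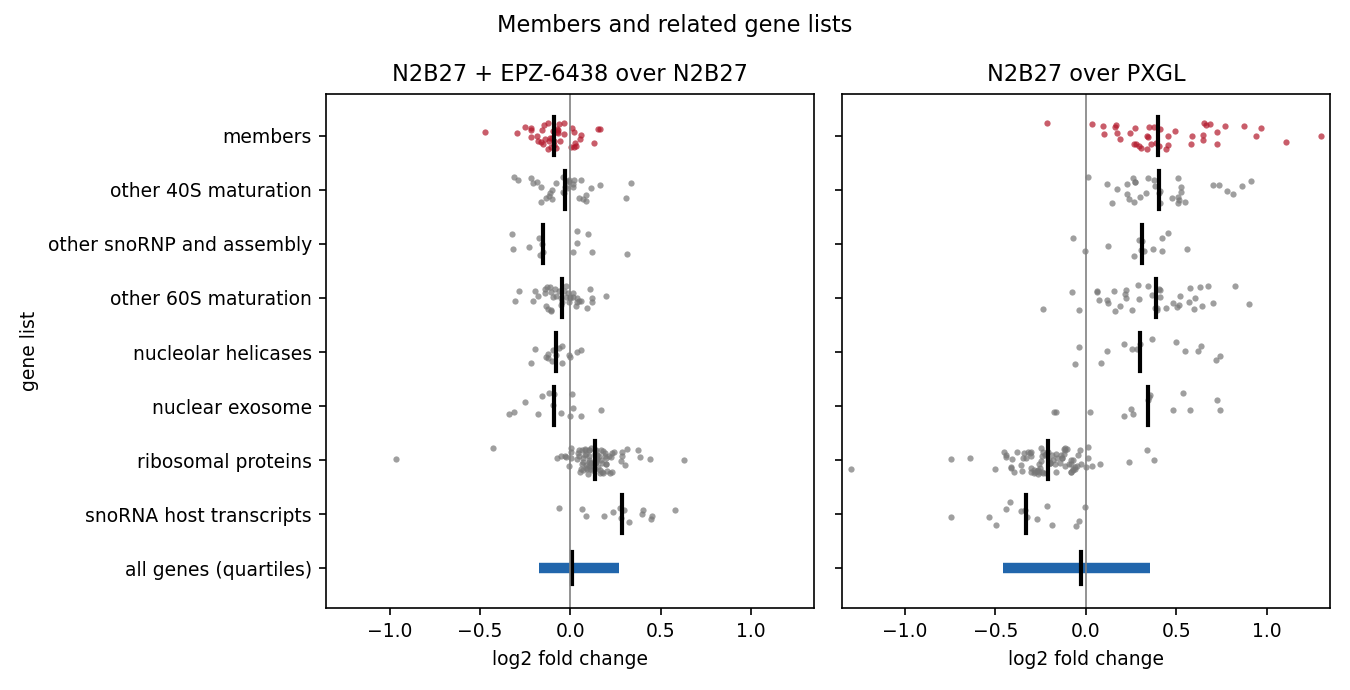
Log2 fold changes of the 42 members, of the related gene lists (each point a gene, values beyond 1.3 drawn at 1.3) and of all tested genes (bar, quartiles), for N2B27 with EPZ-6438 over N2B27 (left) and N2B27 over PXGL (right); vertical bars are medians. The assembly factors share medians near 0.3 to 0.4 on the right, while ribosomal proteins (-0.21) and snoRNA host transcripts (-0.33) lie below 0 there and above 0 on the left.

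Cell-cycle genes and targets of MYC outside the ribosome were read as context. Of 16 cell-cycle genes 9 rose (56.2%) and 1 fell (6.25%) in N2B27 relative to PXGL, where 27.4% and 28.7% of all tested genes did. The summed level of the 16 was 4965 to 5034 CPM in N2B27, against 4324 to 4459 CPM in PXGL. With EPZ-6438 that sum was 4631 to 4716 CPM, with none of the 16 at 0 in any group; its part in the changes of the members was not tested. Of 24 metabolic and translation genes known as MYC targets 16 rose (66.7%) and 2 fell (8.33%) in N2B27 relative to PXGL. With EPZ-6438 4 rose relative to N2B27 (16.7%, where 14.2% of all genes rose) and 11 fell (45.8%, where 10.6% fell). ODC1, the first enzyme of polyamine synthesis and a classic MYC target, was among the 4. It was at 331.6, 321.9 and 328.3 CPM with EPZ-6438, against 153.9, 153.5 and 155.5 CPM in N2B27, a 2.12-fold rise (adjusted p = 7.81e-09). CCND2, a D-type cyclin, was at 204 ± 8.27 CPM with EPZ-6438, 92.2 ± 2.28 CPM in N2B27 and 3.34 ± 0.464 CPM in PXGL (SD, n = 3). It was higher with EPZ-6438 than in N2B27 (adjusted p = 3.95e-09 by edgeR) and higher in N2B27 than in PXGL (adjusted p = 5.23e-16).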

How the data were processed

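RNA-seq libraries of the H1 line were compared in 3 groups of 3. Trizol RNA went into libraries depleted of rRNA, per the labels' protocols, whereas the molecule label names polyA RNA; strand is not given. The values the authors deposited are expected counts, in part not whole numbers, under 40332 gene symbols. The tools named in the submitters' processing notes are STAR 2.7.6a, Trim Galore and DESeq2, with the build hg38. Neither the counting program nor the annotation is stated (not given in the sources used here).

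Counts were rounded to whole numbers. Genes were kept by edgeR's filterByExpr (15162), scaled by TMM and tested with edgeR 4.0.16 (limma 3.58.1, R 4.3.3) quasi-likelihood F tests, with all 9 libraries sharing one estimate of spread, after the script was tested on simulated data. Adjusted p-values are Benjamini-Hochberg over all kept genes. Exon lengths and overlaps came from GENCODE 29 and promoters from RefSeq. The members and lists were chosen with earlier results of these data known. Values per library are given for MYC, MYCN and, in each role, the members with the smallest adjusted p, the largest fold change and the highest level per kb; on other lists up to 3 called genes per comparison could be named. UTP14A, BOP1 and other members given by library beyond this rule were chosen after their values were seen. Alternatives were DESeq2 1.42.0, its size factors, no filter and a filter at 5 CPM in 3 libraries, fits of only the compared groups, a replicate block, removal of ribosomal protein and mitochondrial genes, and leaving out each library of the compared groups (and PXGL replicate 1 throughout). Depth limits precision most for MYC in PXGL (28 counts in its lowest library); other members had at least 309 counts per library.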

Additional observations from a re-analysis of the deposited data

How the results depend on the processing

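Relative to PXGL, 32 to 40 members were higher in N2B27 when each library of the 2 groups compared was left out in turn, and 25 to 39 with EPZ-6438; BOP1 was the 1 member lower, and 0 were lower in N2B27 without N2B27 replicate 1 or 3. All genes called ranged over 7665 to 9505 and 7598 to 9452 in these comparisons. For EPZ-6438 over N2B27, leaving out a library of these groups or PXGL replicate 1 gave 2 to 15 members lower, 0 to 1 higher and 2761 to 5768 genes called in all; the upper ends came without PXGL replicate 1, an alternative chosen after seeing the data. With only the compared groups, 16 members were lower, 1 was higher and 5643 genes were called; with DESeq2 size factors 5 and with DESeq2's test 6 members were lower. The cause was not tested; the coefficient of variation between libraries was 5.7% with EPZ-6438, 4.83% in N2B27 and 12.5% in PXGL.

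Direction changed only for members that had not passed, among the alternatives run; for most the difference was near 0, but NOP10 and NHP2 ranged wider against PXGL. For EPZ-6438 over N2B27, UTP14A was at -0.006 with DESeq2 size factors or DESeq2's test and at -0.0148 with no filter, which also turned RRP12 (-0.0011) and NOP16 (-0.0083). Leaving out single libraries gave UTP3 -0.0166 to 0.0619, UTP4 -0.0209 to 0.0594, UTP11 -0.10 to 0.0043, UTP14A -0.0039 to 0.0133, NOP14 -0.0006 to 0.0593, RRP9 -0.002 to 0.0981, RRP12 -0.035 to 0.0561, NOP16 -0.0089 to 0.0222 and BYSL -0.0711 to 0.0158. For N2B27 over PXGL it gave NHP2 -0.0572 to 0.21 and NOP10 -0.0011 to 0.41; for EPZ-6438 over PXGL, FBL -0.079 to 0.041, NHP2 -0.15 to 0.11 and NOP10 -0.15 to 0.26. NHP2 passed in the last comparison without PXGL replicate 1 (0.11, adjusted p = 0.0373).

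Libraries with the same replicate number did not deviate together (correlations -0.024 to 0.04). The labels do not say what the numbers stand for, and this check cannot exclude a shared batch. With the replicate block 4 members were lower with EPZ-6438 than in N2B27, NOP2 among them, 35 were higher in N2B27 than in PXGL and 3697 and 8498 genes were called. Depth was lowest for MYC in PXGL, at 28 to 63 counts a library.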

Other observations

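Other genes of the MYC network did not move as a block. The list holds 16 genes other than MYC and MYCN, among them FBXW7, USP28 and CIP2A, which are not E-box binding factors. Of the 16, 5 rose (31.2%) and 7 fell (43.8%) in N2B27 relative to PXGL, where 27.4% and 28.7% of all tested genes did. Their median log2 fold change was -0.13. With EPZ-6438 2 rose (12.5%, where 14.2% of all genes rose) and 3 fell (18.8%, where 10.6% fell) relative to N2B27, with a median of 0.07. The 6 core pluripotency markers on a fixed list were all lower with EPZ-6438 than in N2B27 (median log2 fold change -0.35), and their summed level was 3361 to 3417 CPM with EPZ-6438, 4097 to 4150 CPM in N2B27 and 2967 to 3262 CPM in PXGL.

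RPL22L1, a paralog of the ribosomal protein gene RPL22, rose most among the ribosomal protein genes named by the rule. It was at 75.1, 68.4 and 64.0 CPM with EPZ-6438, against 44.9, 44.5 and 44.8 CPM in N2B27, a 1.54-fold rise without overlap (adjusted p = 0.000771 by edgeR).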
